A study of Mus musculus with 90 samples.

Results

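The genes described here encode the proteins of the mitochondrial ribosome. They were taken as the rows of the gene count table whose symbol is Mrpl or Mrps followed by a number, without pseudogenes, and 77 of the 24422 genes of the table met this rule. Of these, 48 carried an Mrpl symbol, given to proteins of the large subunit, and 29 an Mrps symbol, given to proteins of the small subunit. The symbols date from before the structure of the mammalian particle was known: the products of Mrps30 and Mrps18a sit in the large subunit, and the product of Mrps36 is now known as a component of the alpha-ketoglutarate dehydrogenase complex. The genes are counted by symbol throughout.

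The mitochondrial ribosome translates the few proteins that mitochondrial DNA encodes, all of them subunits of the respiratory chain and the ATP synthase. Its rRNA comes from mitochondrial DNA, but every one of its proteins is encoded in the nucleus, made in the cytosol and imported. A set of the proteins has a counterpart in bacterial ribosomes and the rest is found in mitochondrial ribosomes only. Of the 77 genes 48 fell in the first class and 29 in the second, where Mrps36 is counted by its symbol. The mature oocyte carries a large store of mitochondria and of maternal mRNA, and in the mouse the major activation of the embryonic genome falls at the 2-cell (2c) stage.

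Single MII oocytes, 2c embryos and 8-cell (8c) embryos were collected from superovulated CD-1 mice that were WT or homozygous for a Plag1 knockout (KO), with WT males for the embryos. Plag1 encodes a zinc finger transcription factor. The KO oocytes therefore lacked both alleles, while the 2c and 8c embryos of KO females (matPlag1KO) carried an intact paternal allele. The females were sexually mature and 1 to 3 months old, oocytes were taken 21 to 23 h after the ovulatory hormone and were not cultured, and zygotes were cultured and picked as 2c embryos at 45 to 47 h and as 8c embryos at 71 to 73 h, so that stage and time in culture cannot be told apart. A library is a whole oocyte or embryo, so the number of cells and the RNA per cell cannot be told apart either.

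Of 90 libraries, 78 were kept: 16 WT and 14 KO libraries of MII oocytes, 11 and 11 of 2c embryos, and 15 and 11 of 8c embryos, spread over the 2 multiplexed library pools of the labels (libA and libB, here pools A and B) that each held every group. Gene counts per library had medians of 395023 (WT) and 649899 (KO) at MII, 148473 and 163626 at 2c, and 564009 and 393914 at 8c, so the 2c values rest on the fewest counts. Plag1 was detected in 16 of 16 WT and 3 of 14 KO oocytes. At 2c, however, it was detected in 1 of 11 WT embryos against 9 of the 11 with the label matPlag1KO. The label therefore matches the knocked-out gene at MII only, and at 2c and 8c it names the mother. Since the labels do not name the mothers, siblings could not be matched, and the p-values measure the spread between embryos. The summed level of 11 cumulus and granulosa cell markers stayed at or below 47.3 CPM (gene counts scaled to the same library total) in every library. The aromatase gene Cyp19a1 was nevertheless detected in 15 of 16 WT oocytes (169 counts, mean 16.8 CPM) and 14 of 14 KO oocytes, and the receptor gene Fshr in 10 of 16 and 10 of 14. Has2 had 0 counts in WT and 4 in KO oocytes, and Ptx3 had 0 in both. The summed sperm markers stayed at or below 105 CPM.

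The genes lay on 17 chromosomes, and their annotated spans in mm9 ran from 825 to 121712 bp with a median of 7306 bp. The start of 28 of the 77 genes (36.4%) lay within 1000 bp of the start of a gene on the opposite strand, against 2919 of all 24422 genes (12%). The partner start could lie before or after that of the gene, so pairs that overlap are counted too. Mrpl48 and Rab6a, with starts 410 bp apart, are a pair of that kind. Mrps11 and Mrpl46 form such a pair with each other, with starts 42 bp apart. The counts come from transcript 5′ ends and the strand setting of the counting is not given in the sources used here, so genes that overlap may share reads. This applied to 4 genes that overlapped a gene of the same strand (Mrps6 with Slc5a3, Mrpl53 with Ccdc142, Mrps23 with Cuedc1, and Mrpl21 with a microRNA gene) and to 7 that overlapped a gene of the opposite strand (Mrpl19, Mrpl24, Mrpl41, Mrpl48, Mrpl49, Mrps25 and Mrps27). Mrps6 and Slc5a3, a myo-inositol transporter gene, start 14 bp apart, and their counts were equal in 24 of 78 libraries.

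Promoters of 68 of the 77 genes were found in the RefSeq table (GRCm38.p6; 250 bases before to 50 after the start). They were searched on both strands for 3 motifs of factors that housekeeping and mitochondrial genes are known for: the ETS core CCGGAAG, the NRF1 motif GCGCATGCG and the YY1 motif AAGATGGC. The ETS letters were found in 25 of 68 promoters (36.8%, against 9.9% of all 27025 genes with a promoter), the NRF1 letters in 7 (10.3% against 2.0%) and the YY1 letters in 12 (17.6% against 3.2%). At least 1 of the 3 was found in 37 promoters (54.4% against 14.1%). Mrpl13, Mrpl15, Mrpl19, Mrpl38, Mrpl4, Mrpl54, Mrps28, Mrps34 and Mrps35 had no entry. A match is a description of the letters and not a bound site.

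The promoters of 4 genes that the results below turn on show the range of these matches, with the matching letters in capitals, and each runs 5′ to 3′ on the strand of the gene. Mrpl39 (chr16:84735195-84735494, minus strand) holds the NRF1 letters on both strands in overlap, Mrps11 (chr7:78782881-78783180, plus strand) the YY1 letters on the opposite strand, Mrps18b (chr17:35916391-35916690, minus strand) NRF1 and ETS letters on the opposite strand, and Mrpl43 (chr19:45006393-45006692, minus strand) the ETS letters at 2 places.
Mrpl39: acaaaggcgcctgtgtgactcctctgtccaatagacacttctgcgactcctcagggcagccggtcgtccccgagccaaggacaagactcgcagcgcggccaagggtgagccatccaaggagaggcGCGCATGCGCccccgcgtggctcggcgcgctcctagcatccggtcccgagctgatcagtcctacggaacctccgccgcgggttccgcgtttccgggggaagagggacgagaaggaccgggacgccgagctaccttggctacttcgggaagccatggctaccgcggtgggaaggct
Mrps11: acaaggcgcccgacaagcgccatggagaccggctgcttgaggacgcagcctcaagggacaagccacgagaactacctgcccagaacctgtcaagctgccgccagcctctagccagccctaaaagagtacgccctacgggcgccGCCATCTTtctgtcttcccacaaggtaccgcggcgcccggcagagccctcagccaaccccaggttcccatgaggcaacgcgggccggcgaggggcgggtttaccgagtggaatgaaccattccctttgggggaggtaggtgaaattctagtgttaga
Mrps18b: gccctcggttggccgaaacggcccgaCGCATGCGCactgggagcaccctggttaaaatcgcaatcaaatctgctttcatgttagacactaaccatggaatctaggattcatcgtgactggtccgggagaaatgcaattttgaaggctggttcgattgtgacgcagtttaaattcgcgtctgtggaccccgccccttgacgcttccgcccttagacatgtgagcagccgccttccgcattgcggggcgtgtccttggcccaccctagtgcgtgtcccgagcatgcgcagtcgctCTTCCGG
Mrpl43: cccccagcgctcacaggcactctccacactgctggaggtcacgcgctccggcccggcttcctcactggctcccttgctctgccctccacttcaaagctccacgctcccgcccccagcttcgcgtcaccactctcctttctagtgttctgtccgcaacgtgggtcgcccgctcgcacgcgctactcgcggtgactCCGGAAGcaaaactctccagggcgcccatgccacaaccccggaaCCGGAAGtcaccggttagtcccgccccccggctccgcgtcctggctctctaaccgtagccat
The promoters of Mrpl12 and Mrps6 held none of the 3 motifs.

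The study listed sites in mouse promoters that resemble a 31-base motif with a PLAG1 binding site, found by its authors in human embryos, and 2 of the genes described here were among them. The list was limited to genes that the study had called lower in matPlag1KO 2c embryos on these samples, so both genes are on it by that choice and their values below are no independent evidence. The paper also reports the motif, at a smaller share, in promoters of expressed genes that it found not affected. Absence from the list therefore does not mean that a gene lacks a site. In mm9 the site of Mrpl20 lies at chr4:155176706-155176736 on the plus strand, the strand of the gene, with its centre at position −1006 bp from the annotated start. That of Mrpl54 lies at chr10:80730232-80730262 on the minus strand, the strand of the gene, with its centre at position −576 bp.
Mrpl20 site: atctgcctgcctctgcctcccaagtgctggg
Mrpl54 site: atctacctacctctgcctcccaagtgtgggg
The 2 sites are shown since Mrpl54 and Mrpl20 are the genes described here that the list holds. At 2c the former passed the test and the latter, with a log2 fold change of −1.41, missed the threshold (edgeR adjusted p = 0.0708).

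The family was measured throughout. All 77 genes had at least 1 CPM in at least 5 kept libraries and were tested among 16511 genes, and each had counts in every group. The median library held counts for 65 (WT) and 69 (KO) of the 77 genes at MII, for 65 and 60 at 2c, and for 76 and 76 at 8c. Their summed counts made up 0.374% ± 0.0975 (SD, n = 16) of gene counts in WT oocytes and 0.412% ± 0.0814 (SD, n = 14) in KO oocytes. The WT 2c embryos stood at 0.418% ± 0.104 (SD, n = 11), those of KO mothers at 0.319% ± 0.0680 (SD, n = 11). The corresponding 8c values were 0.935% ± 0.0873 (SD, n = 15) and 0.947% ± 0.107 (SD, n = 11). Every 8c library lay above every earlier library, since the lowest 8c value was 0.753% and the highest earlier value 0.631%. The ranges of the 2 genotypes overlapped at each stage.

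**Figure D1:**
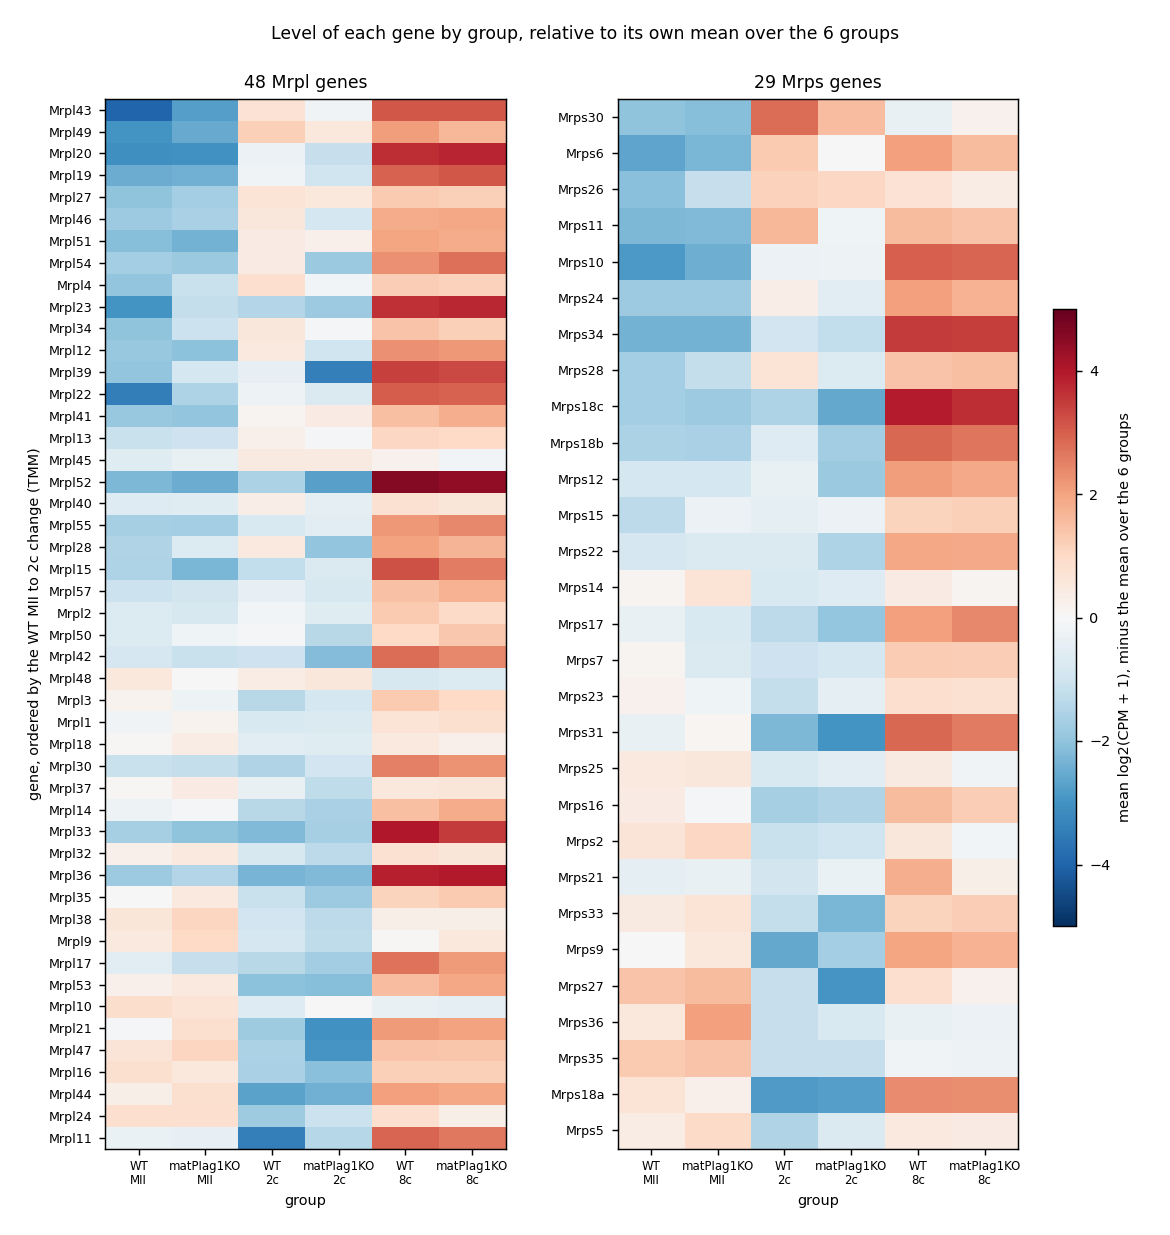
Level of the 77 genes in the 6 groups, Mrpl genes in the left panel and Mrps genes in the right, as the mean log2(CPM + 1) of a group minus the gene's mean over the 6 groups (red above, blue below). Within a panel the genes are ordered by their WT change from MII to 2c, so genes at the top were low in oocytes and genes at the bottom had higher levels in oocytes than at 2c; most rows are reddest at 8c.

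The first comparison asked which of the genes differed between the genotypes at 2c, in embryos without maternal Plag1. None of the 77 genes was higher in matPlag1KO embryos and 6 were lower: Mrpl39, Mrpl12, Mrps6, Mrpl54, Mrps11 and Mrps18b. The log2 fold changes of these 6 ran from −3.37 to −1.20. Over all genes tested, 2.30% were called higher and 2.62% lower in this comparison, and 6 of 77 is 7.79%. The median log2 fold change of the 77 genes was −0.33, against 0.12 over all genes tested. Below 0 lay 53 of the 77 genes (68.8%), against 42.2% of all genes. Only 44 of the 77 had the same sign within both pools. The calls come from the edgeR quasi-likelihood test with TMM scaling and a Benjamini-Hochberg adjusted p under 0.05. Of the 77 genes 20 had an unadjusted p under 0.05 in edgeR, where 3380 of all 16511 genes did, and DESeq2 called 5 of the 77. The share of all genes that DESeq2 called was not counted, here and in the comparisons below.

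**Figure D2:**
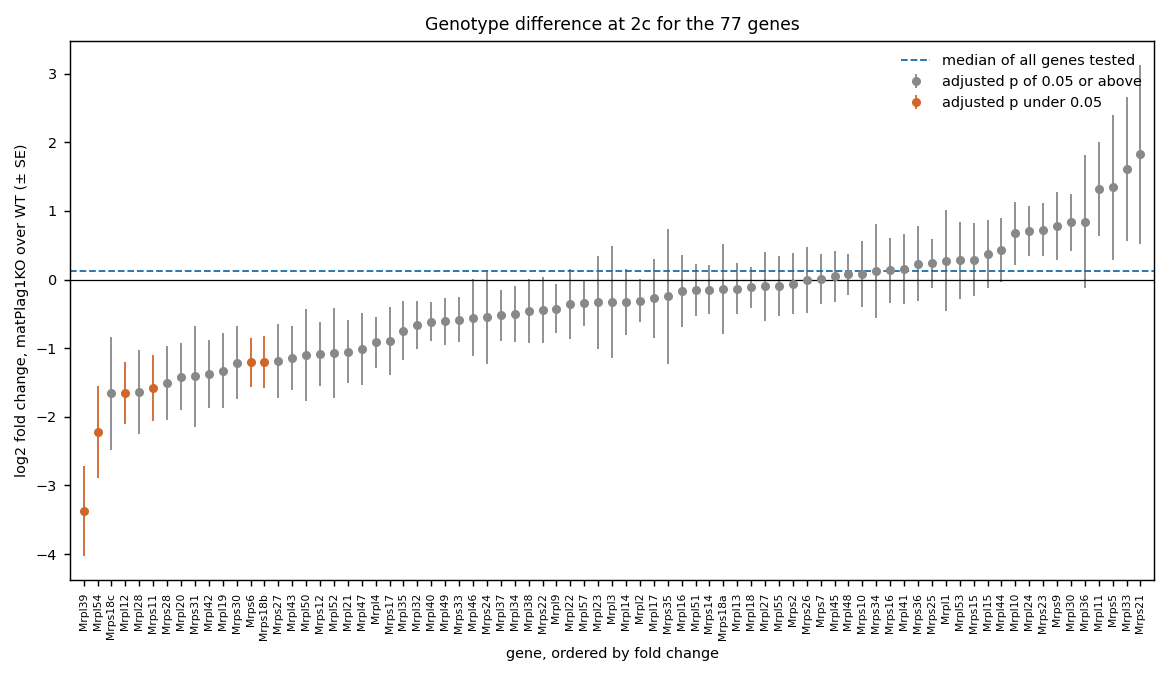
Log2 fold change of each of the 77 genes between matPlag1KO and WT 2c embryos (vertical axis, ± SE), ordered by fold change. Orange points are the 6 genes with an adjusted p under 0.05, all below 0, and the dashed line is the median of all genes tested (0.12).

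Mrpl39 (mm9 chr16:84717825-84735547, minus strand), a protein of the large subunit without a bacterial counterpart, had the largest difference. Its level in the WT 2c embryos was 0 CPM at the lowest, 13.9 at the median and 72.9 at the highest, with counts in 10 of 11 libraries. In the matPlag1KO embryos it was 0 at the lowest and the median and 9.22 at the highest, with 4 counts in 3 of 11 libraries against 41 counts in WT. The groups overlapped in the low values only. Mrpl39 was lower in matPlag1KO embryos by a log2 fold change of −3.37 (SE 0.652, edgeR adjusted p = 0.000908), with −4.01 within pool A and −3.10 within pool B. It was the only one of the 6 still called when the libraries were scaled by their spike-in totals (−2.99, edgeR adjusted p = 0.0185), and it was called without any single 2c library (−4.10 to −2.95). At MII the gene had been higher in KO than in WT oocytes without passing the test (12.9 ± 11.03 CPM, SD, n = 14, against 5.29 ± 5.30 CPM, SD, n = 16), and at 8c it reached 195 ± 63.4 CPM (SD, n = 15) in WT and 177 ± 36.1 CPM (SD, n = 11) in matPlag1KO embryos.

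Among the other large-subunit genes, Mrpl12 encodes the protein of the flexible stalk that recruits translation factors. It lies at mm9 chr11:120345983-120350068 on the plus strand. The WT embryos held 17.2 CPM at the lowest, 73.2 at the median and 224 at the highest, and the matPlag1KO embryos 9.75, 27.7 and 53.9. The groups overlapped, and all matPlag1KO embryos lay below the WT median. Mrpl12 had a log2 fold change of −1.65 (SE 0.457, edgeR adjusted p = 0.0218). Mrpl54 (mm9 chr10:80727467-80729671, minus strand), found in mitochondrial ribosomes only, was low in both groups: 0, 16.4 and 72.9 CPM in WT, with 40 counts in 9 of 11 libraries, and 0, 0 and 30.8 CPM in matPlag1KO, with 9 counts in 4 of 11. The groups overlapped from 0 upwards. Mrpl54 had a log2 fold change of −2.22 (SE 0.671, edgeR adjusted p = 0.0381).

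The 3 genes with an Mrps symbol have bacterial counterparts. Mrps6 (mm9 chr16:92058581-92112472, plus strand) held 51.7 CPM at the lowest, 167 at the median and 394 at the highest in WT, against 31.9, 65.5 and 254 in matPlag1KO embryos. Its log2 fold change was −1.21 (SE 0.355, edgeR adjusted p = 0.0319); Slc5a3, whose start lies 14 bp away, stood at −1.29 (SE 0.344, edgeR adjusted p = 0.0176), and the 2 cannot be told apart. Mrps11 (mm9 chr7:85928017-85937874, plus strand), a protein of the platform of the small subunit, held 40.2, 77.7 and 136.5 CPM in WT and 4.61, 18.8 and 77.01 in matPlag1KO embryos. It had a log2 fold change of −1.58 (SE 0.483, edgeR adjusted p = 0.0389), while its head-to-head partner Mrpl46 stood at −0.55 (edgeR adjusted p = 0.596). Mrps18b (mm9 chr17:36047330-36053314, minus strand) is one of the mammalian relatives of bacterial S18. It held 11.5, 81.9 and 140.6 CPM in WT and 4.61, 27.3 and 69.3 in matPlag1KO embryos, with a log2 fold change of −1.20 (SE 0.381, edgeR adjusted p = 0.0468). In each of the 3 genes the groups overlapped, with the matPlag1KO median below the WT median.

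**Figure D3:**
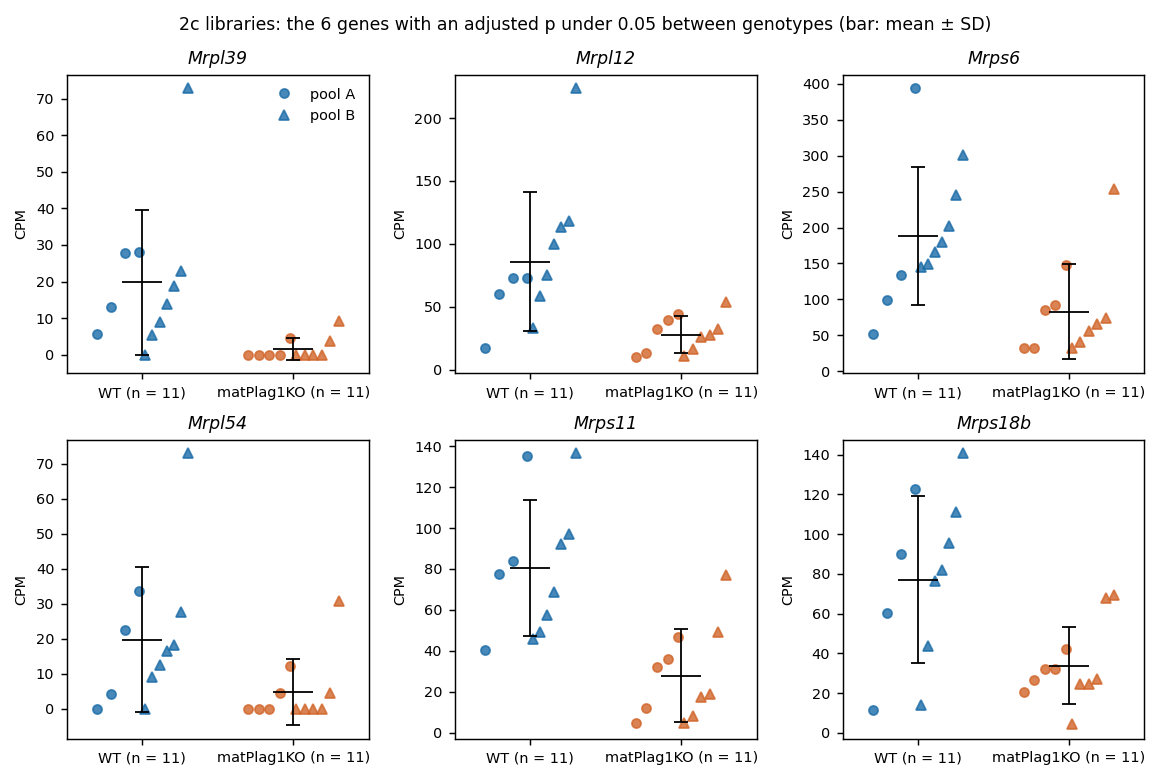
CPM (vertical axis, linear) in each 2c library for the 6 genes with an adjusted p under 0.05, WT in blue and matPlag1KO in orange, circles for pool A and triangles for pool B, with the mean ± SD as bars. The groups overlap in every panel; 8 of 11 matPlag1KO embryos are at 0 for Mrpl39.

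The difference lay below 0 within both pools for all 6 genes. Apart from Mrpl39, the log2 fold changes ran from −1.98 to −1.09 within pool A (4 WT and 5 matPlag1KO embryos) and from −2.39 to −1.24 within pool B (7 and 6). The calls were close to the threshold, and leaving out single embryos moved their number between 2 and 7. It fell to 2 or 3 without WT replicate 3, 6, 9 or 10 or matPlag1KO replicate 1, 8 or 12. Mrpl12 was called in 21 of the 22 fits that left out an embryo, Mrps6 in 15, Mrpl54 and Mrps11 in 12 each, and Mrps18b in 7. The share of all genes called in those 22 fits was not counted. With spike-in scaling, under which 1.16% of all genes were called higher and 0.569% lower, only Mrpl39 was called, and the medians were −0.12 for the 77 genes and 0.28 for all genes.

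The 2 sets of embryos also differed in the medians of their summed stage markers, beside which these values stand. The summed level of 8 oocyte genes had a median of 3600 CPM (1830 to 6950) in WT and 4930 CPM (2600 to 8830) in the embryos labelled matPlag1KO, that of the 5 measured of 6 genes known for the 2c stage 203 CPM (78.1 to 1020) and 498 CPM (241 to 1430), and that of 6 genes known for the 8c stage 4770 CPM (3220 to 6970) and 2550 CPM (1430 to 6500). The last list does not mark 8c alone, with a median of 6330 CPM already in WT oocytes. Its sum rests almost wholly on Dppa3, a maternal gene, with a mean of 4840 CPM in WT and 3370 CPM in matPlag1KO 2c embryos. The means of the other 5 genes, all of few counts, were higher in the latter (Krt8 0 and 1.66 CPM, Fabp3 0.414 and 3.42, Cdx2 0.508 and 1.71, Krt18 4.92 and 5.40, Atp1b1 9.93 and 11.5), so the list gives no direction for the 8c stage. Within the oocyte list the means of Zp3 (143 CPM in WT and 74.4 in matPlag1KO 2c embryos) and Zp2 (65 and 61.8) went the other way. Those of Bmp15 (394 and 1400), Oosp1 (2400 and 2760), Gdf9, Ooep, Zp1 and Mos were higher in matPlag1KO. The part of embryo age in the lower levels of the 6 genes was not tested. The cytosolic ribosomal protein genes, which build the ribosome of the cytosol, were lower in 25 of 81 cases and higher in 0, with a median log2 fold change of −0.99, and 3 were lower with spike-in scaling.

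By subunit symbol, 3 of 48 Mrpl genes and 3 of 29 Mrps genes were lower, with median log2 fold changes of −0.34 and −0.15, where 2.62% of all genes were lower and their median was 0.12. With spike-in scaling 1 Mrpl and 0 Mrps genes were called, with medians of −0.18 and 0.03. Of the genes with a bacterial counterpart 4 of 48 were lower, and of those without 2 of 29. Several members chosen for their role did not pass the test at 2c. Mrpl20, a large-subunit protein with a listed PLAG1 site, held 0 to 129.5 CPM in WT and 0 to 32.3 CPM in matPlag1KO embryos, and its log2 fold change was −1.41 (SE 0.491, edgeR adjusted p = 0.0708). Mrps12, a protein of the decoding centre, stood at −1.09 (edgeR adjusted p = 0.155) and Mrps18c, with 9 counts in WT and 3 in matPlag1KO embryos, at −1.66 (edgeR adjusted p = 0.232). Mrpl3, Mrpl44, Mrps2, Mrps16, Mrps18a, Mrps22, Mrps34 and Mrps36 had log2 fold changes between −0.44 and 0.43, each with an adjusted p of 0.636 or above in edgeR.

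The genes that act with the particle were described from lists of 4 kinds. Of 6 measured ribosomal proteins under other symbols, Aurkaip1, a small-subunit protein, was lower in matPlag1KO 2c embryos (log2 fold change −1.56, SE 0.414, edgeR adjusted p = 0.0166) and none was higher. Of 4 genes of mitochondrial transcription, Tefm, its elongation factor, was lower (−1.60, SE 0.461, edgeR adjusted p = 0.0280). None of 11 translation factors and none of 19 genes of assembly and rRNA modification passed the edgeR test in either direction. An unadjusted p under 0.05 was found for 1 and 2 of them, and for 3380 of all 16511 genes. Over all genes 2.30% were higher and 2.62% lower, and with spike-in scaling no gene of the 4 lists was called at 2c. At MII none of the genes in these lists was called, and at 8c only Gfm2, a ribosome recycling factor, which was higher in matPlag1KO embryos (1.33, SE 0.365, edgeR adjusted p = 0.0377) beside 1.21% of all genes. With spike-in scaling Gfm2 was not called.

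In MII oocytes, where the transcripts are maternal, none of the 77 genes was called in either direction, while 0.309% of all genes were higher and 0.472% lower in KO oocytes. At an unadjusted p under 0.05 there were 8 of the 77 and 1690 of all 16511 genes, and DESeq2 called 0 of the 77. The median log2 fold change was 0.08, against 0.00 for all genes. The 4 smallest p-values were those of Mrpl35 (0.98, edgeR adjusted p = 0.116), Mrps7 (−0.85, edgeR adjusted p = 0.137), Mrpl39 (1.14, edgeR adjusted p = 0.142) and Mrpl43 (1.47, edgeR adjusted p = 0.165). Mrpl35 went opposite ways in the 2 pools, with 1.80 within pool A and −0.67 within pool B, and Mrpl43 stood at 2.12 and 0.18.

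A WT oocyte of a pool shared its well label with a KO oocyte of the other pool, and the 14 pairs deviated together (r = 0.148 to 0.782 across 8418 genes, which are not independent). When the well entered the fit as a replicate block beside a pool term, 7 of the 77 genes were called, 4 higher and 3 lower in KO oocytes, where 3.99% of all genes were higher and 0.915% lower. The higher genes were Mrps36 (log2 fold change 1.43, SE 0.169, edgeR adjusted p = 9.62e-15), Mrpl22 (2.31, edgeR adjusted p = 7.23e-08), Mrpl21 (0.72, edgeR adjusted p = 6.31e-05) and Mrpl23 (2.25, edgeR adjusted p = 0.0177). The lower genes were Mrps7 (−0.85, edgeR adjusted p = 0.00177), Mrps17 (−0.79, edgeR adjusted p = 0.0177) and Mrpl48 (−0.43, edgeR adjusted p = 0.0437). Without the block, none of the 7 was called. The summed oocyte markers had a median of 6260 CPM (4350 to 25000) in WT and 16500 CPM (4450 to 21500) in KO oocytes, and their part in these differences was not tested. The level of Mrps36 varied widely within each genotype and ran from 8.72 to 367 CPM over the WT oocytes (median 43.4) and from 14.8 to 526 CPM over the KO oocytes (median 288), and the groups overlapped. Its high WT values lay in pool A. The blocked fit gave a single genotype difference over both pools, so it does not show whether the pools were alike.

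At 8c none of the 77 genes was called in either direction, while 1.21% of all genes were higher and 0.527% lower in matPlag1KO embryos. There were 3 of the 77 with an unadjusted p under 0.05 and 2363 of all 16511 genes, and DESeq2 called 0 of the 77. The 4 smallest p-values were those of Mrps21 (−1.86, edgeR adjusted p = 0.177), Mrpl9 (0.59, edgeR adjusted p = 0.319), Mrpl24 (−0.56, edgeR adjusted p = 0.346) and Mrps2 (−0.72, edgeR adjusted p = 0.395). Mrps21 rests on 110 counts in 12 of 15 WT embryos and 16 counts in 6 of 11 matPlag1KO embryos. The 6 genes that were lower at 2c had log2 fold changes that did not pass the test at 8c.

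Whether the genotype difference itself changed between stages was tested as an interaction. Between 2c and MII it was lower at 2c for 4 of the 77 genes and higher for none, where 1.68% of all genes were lower and 1.62% higher. At an unadjusted p under 0.05 there were 19 of the 77 and 2923 of all 16511 genes, and DESeq2 called 5 of the 77. Mrpl39 had the largest shift (−4.51 on the log2 scale, SE 0.749, edgeR adjusted p = 3.27e-05), and it was present within pool A (−5.28) and pool B (−4.19). Mrpl43, a large-subunit protein of mitochondria only, shifted by −2.61 (SE 0.676, edgeR adjusted p = 0.0162), with −3.84 within pool A and −1.06 within pool B. Mrpl4, which lines the exit tunnel, shifted by −1.72 (SE 0.489, edgeR adjusted p = 0.0322), with −1.54 and −2.19 within the pools. Mrpl35 shifted by −1.72 (SE 0.527, edgeR adjusted p = 0.0471), with −2.25 within pool A and −0.33 within pool B. With spike-in scaling Mrpl39 and Mrpl43 were still called, while Mrpl4 and Mrpl35 were not. The interaction was fitted without the well as a replicate block, and with that block the MII difference of Mrpl35 was 0.42 rather than 0.98. Those of Mrpl39, Mrpl43 and Mrpl4 were 0.93, 1.38 and 0.60 with the block, against 1.14, 1.47 and 0.80. Between 2c and 8c the genotype difference was lower at 2c for Mrpl39 alone (−3.23, SE 0.739, edgeR adjusted p = 0.00783) and higher for none, where 1.13% of all genes were lower and 1.17% higher. At an unadjusted p under 0.05 there were 15 of the 77 and 2958 of all 16511 genes, and DESeq2 called 3 of the 77.

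Mrpl4 and Mrpl43 give the values behind these shifts. Mrpl4 had medians of 29.5 CPM (0 to 112) in WT and 50.4 CPM (8.46 to 374) in KO oocytes, and of 188 CPM (103 to 333) in WT and 111 CPM (38.8 to 254) in matPlag1KO 2c embryos. Mrpl43 had medians of 0.673 CPM (0 to 14.6) in WT and 4.29 CPM (0 to 57.2) in KO oocytes, and of 83.8 CPM (5.75 to 259) in WT and 35.7 CPM (4.06 to 98.2) in matPlag1KO 2c embryos. In both genes the groups overlapped at each of the 2 stages, and neither gene passed the test at MII or 2c alone.

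Stages were compared on libraries scaled by their spike-in totals, which follow the RNA per oocyte or embryo. From MII to 2c in WT, 11 of the 77 genes rose and 45 fell, where 14.1% of all genes rose and 51.3% fell, and the median log2 fold change was −1.61 against −1.46 over all genes. Relative to the other mRNA (TMM scaling), 27 rose and 26 fell, with 27.5% and 23.1% over all genes and medians of 0.11 and −0.03. All 11 genes that rose did so under both scalings, while 26 of the 45 that fell were also called lower with TMM and 7 stood above 0 there. The signs were the same within both pools for 53 of the 56 genes.

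The 5 largest rises per embryo from MII to 2c were those of Mrps30, Mrpl43, Mrpl49, Mrps6 and Mrpl20. Mrps30, a large-subunit protein of mitochondria only (mm9 chr13:119168917-119176059, minus strand), had 0 counts per 1000 spike-in counts at the lowest and median and 0.201 at the highest in WT oocytes, and 0.206, 1.08 and 1.96 in WT 2c embryos. The groups did not overlap, and the log2 fold change was 3.71 (SE 0.614, edgeR adjusted p = 2.29e-07). Mrpl43 (mm9 chr19:45079504-45080932, minus strand) went from 0.0454 (0 to 0.843) to 1.41 (0.101 to 5.11), with a log2 fold change of 3.31 (SE 0.536, edgeR adjusted p = 1.24e-07). Mrpl49, Mrps6 and Mrpl20 rose by 2.47, 2.31 and 2.08. Each of the 5 rose within both pools.

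The 5 largest falls were those of Mrpl17, Mrps18a, Mrps36, Mrps5 and Mrps27. Mrps18a, a relative of bacterial S18 with a place in the large subunit, went from a median of 2.31 counts per 1000 spike-in counts (0.799 to 10.1) to 0.119 (0 to 1.01), with a log2 fold change of −4.20 (SE 0.585, edgeR adjusted p = 2.31e-09). It was −3.78 within pool A and −4.53 within pool B. Mrps27, an RNA-binding small-subunit protein of mitochondria only, fell by 4.03 on the log2 scale, and Mrps5, with 88 counts in oocytes and 2 at 2c, by 4.11. For Mrpl17 the log2 fold change was −4.31 (SE 0.775, edgeR adjusted p = 1.40e-06), with −5.32 within pool A and −0.52 within pool B, and −1.71 without the 4 oocyte libraries of wells A4 and A5. Those 4 libraries hold the highest gene totals. Mrps36 stood at −4.19 (SE 0.594, edgeR adjusted p = 3.69e-09), with −5.95 within pool A and −0.70 within pool B.

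From 2c to 8c in WT the family rose almost as a whole. Per embryo, 72 of the 77 genes rose and 1 fell, where 31.9% of all genes rose and 16.2% fell, and the median log2 fold change was 2.68 against 0.53 over all genes. With TMM scaling 57 rose and 2 fell (Mrps30 and Mrpl48), where 21.0% of all genes rose and 28.9% fell, with medians of 1.78 and −0.12. Mrps11, Mrpl48, Mrpl45 and Mrps26 were the genes not called with spike-in scaling. The rise was seen for 46 of 48 Mrpl and 26 of 29 Mrps genes, and for 47 of 48 genes with a bacterial counterpart and 25 of 29 without. Of 81 cytosolic ribosomal protein genes 79 rose in the same step, and 70 had already risen from MII to 2c.

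The largest rises to 8c started from almost no counts. Mrpl33 (mm9 chr5:31916324-31925017, plus strand), a small protein of the large subunit, had 1 count over the 11 WT 2c embryos and 550 over the 15 WT 8c embryos. The ratio per spike-in count was 333 (95% counting interval 59.5 to 13200). Mrpl36, Mrpl11, Mrpl52 and Mrps18c had 5, 5, 20 and 9 counts at 2c and were present in all 15 libraries at 8c, with log2 fold changes of 6.78, 6.34, 6.05 and 5.56. Each rose within both pools. Mrps30 alone fell: after its rise at 2c it returned to 0.238 counts per 1000 spike-in counts (0 to 0.572) at 8c, with a log2 fold change of −2.004 (SE 0.565, edgeR adjusted p = 0.00215), −2.16 within pool A and −1.91 within pool B.

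**Figure D4:**
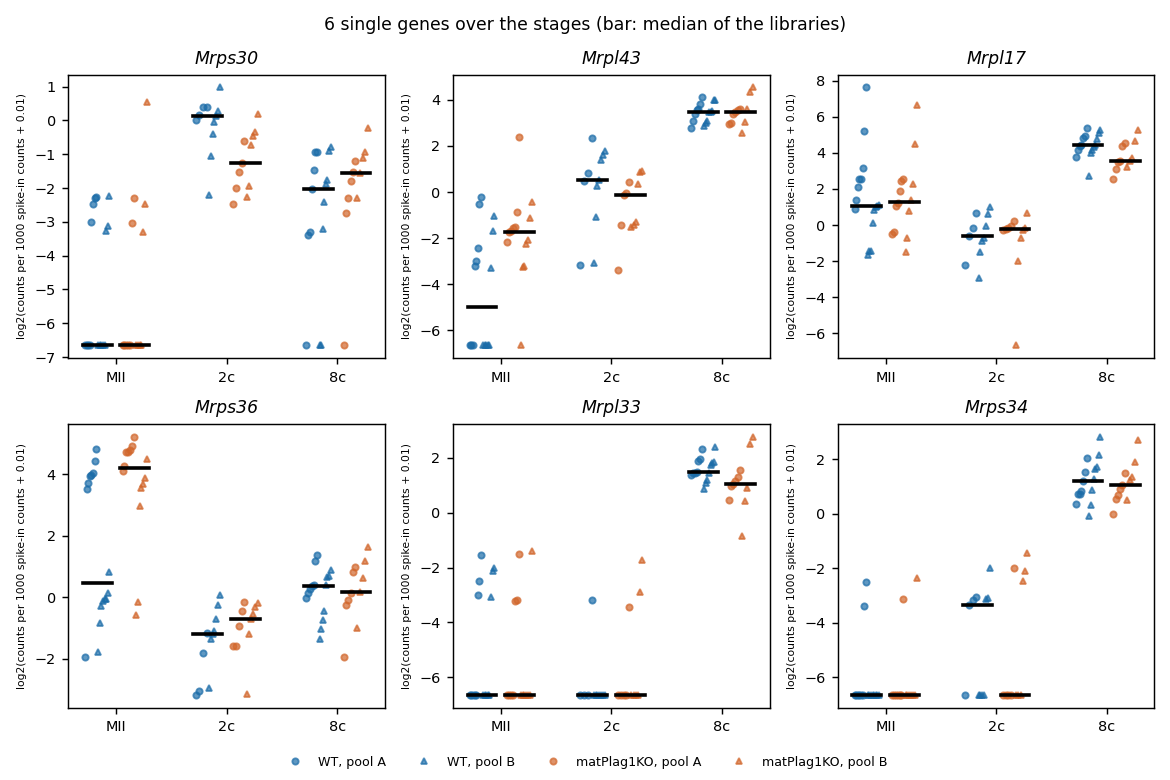
Mrps30, Mrpl43, Mrpl17, Mrps36, Mrpl33 and Mrps34 over the 3 stages, as log2(counts per 1000 spike-in counts + 0.01) in each library (vertical axis). WT is in blue, and KO oocytes and matPlag1KO embryos, both marked matPlag1KO, are in orange. Circles are pool A and triangles pool B, with the median as a bar. Mrps30 is highest at 2c, Mrpl33 and Mrps34 are near the floor until 8c, and the high oocyte values of Mrps36 lie in pool A for WT.

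Over the whole span from MII to 8c in WT, 45 of the 77 genes rose per embryo and 9 fell, where 27.1% of all genes rose and 43.6% fell, and the median log2 fold change was 1.52 against −0.67. With TMM scaling 58 rose and 4 fell, where 36% and 36.3% of all genes did so. The 5 largest rises were those of Mrps34, Mrpl20, Mrpl43, Mrpl52 and Mrpl33. Mrps34 (mm9 chr17:25032065-25033218, plus strand), a protein that binds the small-subunit rRNA, had 3 counts in 2 of 16 WT oocytes and 450 counts in 15 of 15 8c embryos, a ratio per spike-in count of 140 (95% counting interval 47.7 to 682). Mrpl20 (mm9 chr4:155177727-155182938, plus strand) went from a median of 0.102 counts per 1000 spike-in counts (0 to 0.799) to 10.0 (5.64 to 16.1), with no overlap and a log2 fold change of 6.04 (SE 0.501, edgeR adjusted p = 2.29e-19).

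The genes that ended below their oocyte level were led by Mrps36, Mrpl10, Mrps35, Mrpl48 and Mrps27. Mrpl48 fell by 1.81 on the log2 scale (SE 0.257, edgeR adjusted p = 1.78e-09), from a median of 11.2 counts per 1000 spike-in counts (4.84 to 18.7) to 3.56 (1.92 to 5.14). It was −1.30 within pool A and −2.19 within pool B. Mrpl10, which anchors the stalk, fell by 2.06 and Mrps35 by 2.05, with −2.81 and −2.41 within pool A and −0.76 and −1.44 within pool B. For Mrps27 the values were −2.23 and −0.22, and −0.64 with TMM scaling (edgeR adjusted p = 0.0634). Mrps36 (mm9 chr13:101505895-101514614, minus strand) stood at −2.66 (SE 0.472, edgeR adjusted p = 6.28e-07) over both pools, with −3.32 within pool A and 0.22 within pool B, so its direction rests on pool A.

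On the KO side the same steps were counted. From KO oocytes to matPlag1KO 2c embryos 3 of the 77 genes rose and 52 fell, where 13.5% of all genes rose and 50.3% fell, and the 3 were Mrpl49 (1.43), Mrps34 (1.56) and Mrps30 (1.74). Mrps34 rests on 3 counts in KO oocytes and 9 in matPlag1KO 2c embryos, a ratio per spike-in count of 3.93 whose 95% counting interval (0.98 to 22.5) includes no change. With TMM scaling 20 rose and 29 fell, where 29.1% and 19.3% of all genes did so. From 2c to 8c 69 rose and 0 fell, where 29.1% and 19.5% of all genes did so. In edgeR 71 of the 77 and 9088 of all 16511 genes had an unadjusted p under 0.05, while DESeq2 called 71 of the 77. With TMM scaling 63 rose and 2 fell, where 21.2% and 30.3% of all genes did so. From MII to 8c 37 rose and 14 fell, where 24.1% and 45.2% of all genes did so, and with TMM scaling 55 rose and 8 fell, where 34.6% and 34% did. In matPlag1KO embryos Mrps30 stood at −0.54 from 2c to 8c (edgeR adjusted p = 0.487). Apart from the interactions given above, differences between these counts and those of WT were not tested.

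**Figure D5:**
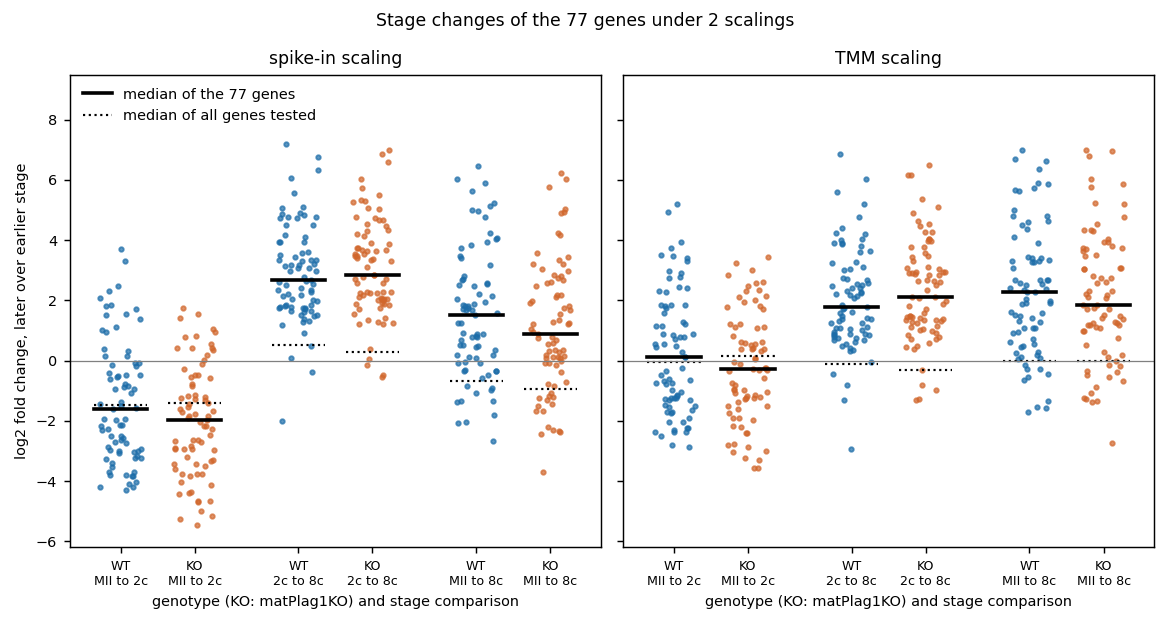
Log2 fold change of each of the 77 genes (vertical axis, later over earlier stage) for 3 stage comparisons in WT (blue) and KO or matPlag1KO (orange), with spike-in scaling on the left and TMM scaling on the right. Solid bars are the median of the 77 genes and dotted bars that of all genes tested: the 77 genes lie at 2.68 against 0.53 from 2c to 8c in WT, and near all genes (−1.61 against −1.46) from MII to 2c.

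The genes that act with the particle were counted in the same steps. From MII to 2c in WT, 0 rose and 2 fell of the 6 ribosomal proteins under other symbols, 0 and 8 of the 11 translation factors, 1 and 11 of the 19 assembly and rRNA modification genes, and 1 and 2 of the 4 transcription genes, where 14.1% of all genes rose and 51.3% fell. With TMM scaling the counts were 1 and 2, 2 and 4, 7 and 5, and 2 and 1. The gene of the assembly list that rose was Rnmtl1, an rRNA methyltransferase (3.56, SE 0.730, edgeR adjusted p = 2.18e-05), and that of the transcription list was Tefm (3.73, SE 0.536, edgeR adjusted p = 5.58e-09). From 2c to 8c, 5 rose and 0 fell of the first list, 5 and 1 of the second, 11 and 1 of the third, and 1 and 0 of the last, where 31.9% of all genes rose and 16.2% fell. With TMM scaling these were 4 and 0, 5 and 1, 7 and 2, and 1 and 2. In the interaction of 2c with MII, Aurkaip1 (−1.96, edgeR adjusted p = 0.0198) and Rnmtl1 (−2.92, edgeR adjusted p = 0.0378) were the genes of these lists that were called.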

How the data were processed

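The authors aligned the reads to mm9 with TopHat, counted them per gene of the UCSC annotation with HOMER, and deposited raw, unscaled counts for 90 libraries (24422 genes, 92 spike-in RNAs). Molecular identifiers were part of the protocol. Versions and strand setting are not given in the sources used here. A gene counted as measured where 5 or more libraries reached 1 CPM (counts scaled to the same library total). The 12 of 90 libraries whose median over measured genes was under 1 CPM were removed, and 16511 genes measured in the remaining 78 were tested. A mean per group was fitted over the 6 groups in edgeR 4.0.16 (R 4.3.3) by quasi-likelihood, with Benjamini-Hochberg adjustment over all genes, TMM factors for genotypes and interactions and spike-in totals for stages. The fit was also run on counts simulated independently for each library, without effects of well, pool or mother. Its outcome is not given here, and no result rests on it. DESeq2 1.42.0 was an alternative.

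Groups were taken from the labels. No library was a copy of another of its group (chi-square per degree of freedom at least 3.54). Named were 14 members fixed for their role, the members called in a genotype comparison or interaction (at most 12, and the 4 smallest p-values if fewer than 4 were called), and the 5 highest and 5 lowest called changes of each WT stage comparison. The members and lists were chosen with earlier results of these data known. Intervals and counts near 0 cover counting error only. Positions are those of the count table (mm9). Promoters are RefSeq sequences (GRCm38.p6), searched in Python 3.11.15.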

Additional observations from a re-analysis of the deposited data

Results flagged for a closer look

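The 5 genotype differences given here changed between stages by the interaction test itself. The difference of Mrpl39 at 2c, where it was lower in matPlag1KO embryos, lay −4.51 below that at MII and −3.23 below that at 8c on the log2 scale. Against MII, the difference at 2c was also lower for Mrpl43 (−2.61), Mrpl4 (−1.72) and Mrpl35 (−1.72). Mrpl39 kept an adjusted p of 0.00112 against MII with spike-in scaling, and stood at 0.0796 against 8c (edgeR). Against MII, Mrpl43 was also called with spike-in scaling, while Mrpl4 and Mrpl35 were not. The shifts of Mrpl43 and Mrpl35 were −1.06 and −0.33 within pool B, with unadjusted p-values of 0.259 and 0.580 in edgeR. The part of pool and of embryo age in these shifts was not tested.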

How the results depend on the processing

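The number of the 77 genes called between the genotypes depended on the processing. With spike-in scaling it was 1 at MII (0 with TMM), 1 at 2c (6), 2 in the interaction of 2c with MII (4) and 0 in that of 2c with 8c (1). Of all 16511 genes, spike-in scaling called 97 higher and 40 lower at MII, and 191 and 94 at 2c. In the 2 interactions these were 111 and 201, and 61 and 31. With all 90 libraries kept, the number of the 77 genes called was 2 at 2c, 1 in the first interaction and 2 in the second. DESeq2 called 3 of them in the second. Pool A alone gave 2 at MII, 0 at 2c, 1 in the first interaction and 0 in the second. Pool B alone gave 6, 2, 11 and 0. Leaving out each 2c embryo in turn, chosen after seeing the data, gave 2 to 7 at 2c. Without the 4 oocyte libraries of wells A4 and A5, also chosen after seeing the data, 1 gene was called at MII. The cause of these changes was not tested, and a single pool holds fewer libraries. Apart from spike-in scaling, the share of all genes called in these alternative fits was not counted. Their numbers can therefore not be set against such a share.

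With the well as a replicate block, 7 genes were called at MII. At 2c only 2 pairs of opposite genotype shared a well label and at 8c none, so no paired fit was made there. The counts of stage calls stayed within 1.5 times under every alternative run, although the split into higher and lower moved with the scaling. Mrps36 reversed from MII to 8c in WT, with 0.22 in pool B alone (edgeR adjusted p = 0.730). Of the other alternative values of single genes, 313 stayed on the same side of the threshold, 44 lost the call and 3 gained it. The 313 include genes called in neither fit, whose direction was not compared. Among the values that left out an embryo, 89 kept the call and 43 lost it. Median gene counts per library of 148473 and 163626 at 2c limit what could be seen there for genes with few counts, such as Mrpl39 and Mrpl54.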
